A study of Mus musculus with 19 samples.

Results

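The 10 genes followed here, Ifit1, Ifit2, Ifit3, Isg15, Oas1a, Oasl1, Oasl2, Mx1, Mx2 and Rsad2, are antiviral genes that type I interferon switches on. They were chosen by name, as every probe that the array's annotation assigns to them, which gave 14 of the 41174 probes on the array and 10 of its 27597 names. Of the 14 probes, 13 could be tested, and the probe with the highest mean level stands for each gene. Leukocyte RNA was taken from the whole blood of male mice of 2 strains, DBA/2 and B6, all of which had received intraperitoneal injections of CAWS, a water-soluble mannoprotein and β-glucan fraction of Candida albicans that induces coronary arteritis in mice. The 0 w samples were taken right after the last injection and the others from mice that survived to week 2, 4, 8 or 9, and no group was labelled as untreated. The samples are leukocytes by their labels, and the mice of one group are called biological replicates there, whereas the design text speaks of mice run singly or in duplicate. There are 2 samples in each group, except that the B6 groups of 2 w and 9 w hold 1 each. By the files (mm8) the probes of Ifit1, Ifit2 and Ifit3 lie at chr19:34715303-34715362, chr19:34641751-34641810 and chr19:34654612-34654671, those of Oasl1, Oasl2 and Oas1a at chr5:115198546-115198605, chr5:115173158-115173217 and chr5:121158956-121159015, those of Mx1 and Mx2 at chr16:97552919-97552978 and chr16:97715636-97715695, and that of Rsad2 at chr12:27029262-27029321. Which exon or other feature each probe matches, and whether it matches both strains equally well, was not analysed here.

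Type I interferons bind a receptor that activates the kinases JAK1 and TYK2, and a complex that holds STAT2 and IRF9 then binds interferon-stimulated response elements in the promoters of many genes. IRF7, itself induced by interferon, drives more interferon production, and USP18 damps signalling at the receptor. Blood monocytes, neutrophils and plasmacytoid dendritic cells are all known to express such genes.

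The promoters are shown because the response element is what these genes are known to share. The sequence itself was not used to choose them. They were chosen as genes that type I interferon switches on, however, so finding the element in them is not independent evidence. RefSeq promoters (GRCm38.p6), each of 300 bases from 250 before to 50 after the start of the gene, were at hand for 8 of the 10 genes, Mx1 and Mx2 being the others. The core of the element, GAAANNGAAA, was searched for on both strands, overlapping matches included. It was found in 5 of these 8 genes and in 3.44% of all 32851 promoters. The 160 bases before the start follow for these 5 genes, 5′ to 3′ on the gene's strand, with the matches in capitals. A match on the opposite strand reads as TTTCNNTTTC.
Ifit1: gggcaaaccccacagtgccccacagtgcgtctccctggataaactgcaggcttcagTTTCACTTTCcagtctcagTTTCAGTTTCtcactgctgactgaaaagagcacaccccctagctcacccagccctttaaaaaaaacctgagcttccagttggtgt
Ifit3: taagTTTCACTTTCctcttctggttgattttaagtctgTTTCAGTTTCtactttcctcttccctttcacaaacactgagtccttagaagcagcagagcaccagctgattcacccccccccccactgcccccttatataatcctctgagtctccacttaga
Isg15: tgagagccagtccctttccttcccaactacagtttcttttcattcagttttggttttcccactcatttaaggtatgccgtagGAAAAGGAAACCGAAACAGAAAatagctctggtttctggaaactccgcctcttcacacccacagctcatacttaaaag
Oas1a: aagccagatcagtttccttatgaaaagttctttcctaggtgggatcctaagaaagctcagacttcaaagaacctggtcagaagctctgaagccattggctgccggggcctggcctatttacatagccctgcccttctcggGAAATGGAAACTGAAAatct
Rsad2: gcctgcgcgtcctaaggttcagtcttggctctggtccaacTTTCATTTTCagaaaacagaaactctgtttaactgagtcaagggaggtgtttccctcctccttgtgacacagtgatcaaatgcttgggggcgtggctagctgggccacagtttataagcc
The Ifit1 stretch lies at chr19:34640729-34640888 and the Ifit3 stretch at chr19:34583369-34583528, both on the plus strand. The Isg15 stretch lies at chr4:156200819-156200978, the Oas1a stretch at chr5:120907526-120907685 and the Rsad2 stretch at chr12:26456453-26456612, all 3 on the minus strand. Ifit1 held 2 matches, starting 104 and 85 bases before the start, and Ifit3 held 2, at 156 and 122 bases. Isg15 held 3 matches that overlap, from 78 bases before the start, and Oas1a held 2 that overlap, from 20 bases. Rsad2 held 1, at 120 bases. The windows of Ifit2, Oasl1 and Oasl2 held none.

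Levels are given as normalized log2 signal, the log2 of an array's brightness at a probe less that array's 75th percentile. A value of 0 is therefore a probe as bright as that percentile, and 1 unit is a 2-fold difference. The percentile itself, on the log2 scale, ran from 7.93 to 9.13 over the 19 arrays and was lower in B6 mice at 0 w (7.98 to 8.14) than at 8 w (9.07 and 9.13). From 33.9% to 51.4% of the spots of an array were well above background. The pairs of replicates differed by a median of 0.0964 to 0.151 (log2, absolute) and the 2 arrays of B6 0 w replicate 2, which hold 1 RNA, by 0.0985. The B6 pairs were about as close as the repeat arrays of 1 RNA (at most 0.109) and the DBA/2 pairs wider (at least 0.122), and the p values, from limma with Benjamini-Hochberg adjustment over all tested probes, measure only the spread between these samples, which may be technical. With so few arrays the precision is limited throughout. The array of DBA/2 9 w replicate 2 had 1187 spots marked as outliers, against 64 to 180 on the other arrays.

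In DBA/2 mice most of the antiviral genes were higher at every later week than right after the injections, though with normexp, another background correction, fewer passed. Against 0 w, 8 of the 10 genes had risen after 2 w, 7 after 4 w, 7 after 8 w and 9 after 9 w. At these weeks 7.9%, 7.58%, 10% and 13.4% of all tested probes had risen. With normexp the counts were 3, 4, 6 and 7, where 0.554%, 1.14%, 2.05% and 10.5% of all probes rose. None of the 10 fell in limma at any of them (0 at an unadjusted p under 0.05 as well). The median change of the 10 genes (log2) was 1.22, 1.08, 1.68 and 1.27 in turn, where the median over all probes lay between -0.18 and -0.03. Over the mean of weeks 4 and 8, 8 genes rose and none fell, against 9.8% of all probes that rose. The exceptions were Mx1 and Mx2. With normexp 5 genes rose over the 2 weeks (2.03% of all probes).

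**Figure D1:**
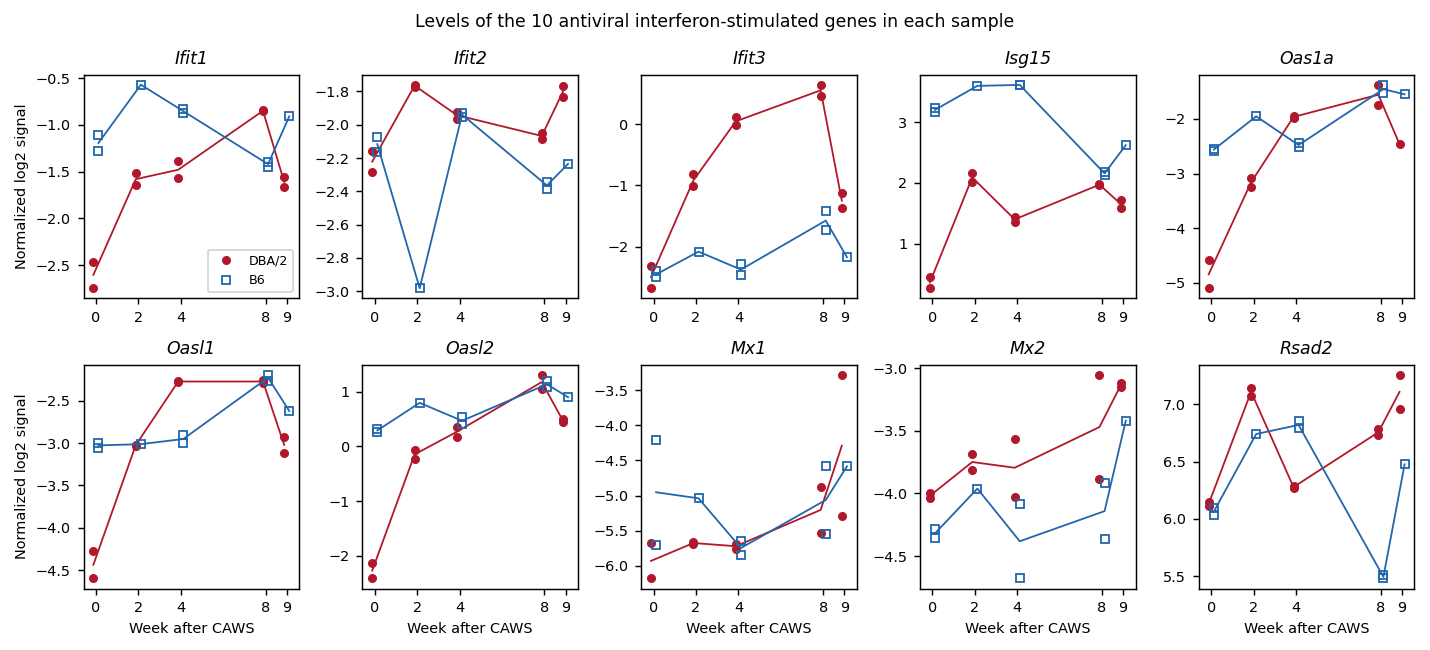
Normalized log2 signal (vertical axis, a scale of its own in each panel) of the main probe of each gene against the week after CAWS administration, with DBA/2 samples as filled circles, B6 samples as open squares and lines through the group means. Both DBA/2 samples at 0 w lie below every later DBA/2 sample for all genes but Mx1 and Mx2. The share of all probes with such a separation is not given here.

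The Ifit genes encode proteins with tetratricopeptide repeats that bind viral RNA and block its translation. In the DBA/2 samples Ifit3 stood at -2.32 and -2.68 right after the injections, -0.82 and -1.01 after 2 w, 0.11 and -0.02 after 4 w, 0.64 and 0.46 after 8 w and -1.13 and -1.37 after 9 w. No 2 of these weeks overlapped, and the order from low to high was 0 w, 9 w, 2 w, 4 w and 8 w. The rise over 4 w and 8 w was 2.80 ± 0.14 (log2, SE), or 6.95-fold (adjusted p = 1.08e-06). From 8 w to 9 w Ifit3 fell by 1.80 (adjusted p = 0.000238). Near-identical copies of Ifit3 and of Oas1a exist in the mouse genome, and what these probes share with them was not analysed here.

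In B6 mice Ifit3 moved less, and its rise of 0.88 from 0 w to 8 w passed. Its samples gave -2.41 and -2.50 at the start, -2.08 after 2 w, -2.28 and -2.47 after 4 w, -1.42 and -1.73 after 8 w and -2.17 after 9 w. The samples at 0 w and 4 w overlapped, and the 8 w samples lay above all the others. The change over 4 w and 8 w was 0.48 ± 0.14 (adjusted p = 0.0465), and the DBA/2 change exceeded it by 2.32 ± 0.20 (adjusted p = 9.95e-05).

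In DBA/2 mice Ifit1 gave -2.46 and -2.75 at the start, -1.52 and -1.64 after 2 w, -1.39 and -1.57 after 4 w, -0.84 and -0.85 after 8 w and -1.55 and -1.67 after 9 w. The samples of 2 w overlapped with those of 4 w and of 9 w, with 0 w below and 8 w above them. In B6 mice Ifit1 was lowest after 8 w (-1.39 and -1.45), against -1.28 and -1.11 at the start, -0.57 after 2 w, -0.83 and -0.88 after 4 w and -0.91 after 9 w. Before scaling, the B6 signals of Ifit1 were higher at 8 w (213 and 197) than at 0 w (113 and 124), and the change at 8 w did not pass (adjusted p = 0.202). Ifit1 rose over 4 w and 8 w by 1.44 ± 0.10 in DBA/2 mice (2.71-fold, adjusted p = 8.82e-06), where the B6 change was 0.06 ± 0.10 (adjusted p = 0.786). Ifit2 varied less in DBA/2 mice, between -2.29 and -1.76. Its rise over 4 w and 8 w was 0.22 ± 0.06 (adjusted p = 0.0372), a call lost in 12 of the 16 fits that each left out 1 replicate (adjusted p from 0.0386 to 0.278 over all 16) and with pan-leukocyte scaling (0.00). In B6 mice Ifit2 was lowest in the single sample at 2 w, at -2.98, against -2.07 and -2.16 at 0 w (it fell by 0.87, adjusted p = 0.000187), and its dimmer second probe was lower there by at least 1.61-fold (adjusted p = 0.01). In that sample 7 of 7 platelet markers were lower than at 0 w as well, with a summed scaled signal of 52836 against 141769 to 145212, and their part in the Ifit2 value was not tested. The lower level of Ifit2 at 8 w in B6 mice did not pass in 12 of 16 fits without 1 replicate, nor did its rise at 4 w in DBA/2 mice in 10 of 16. Before scaling, the mean B6 signal of Ifit2 was higher at 8 w (106) than at 0 w (62.4) or 4 w (72.2).

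ISG15 is a ubiquitin-like protein that is linked to other proteins and also secreted. The files place its probe at chr17:45870420-45870479 (mm8), while RefSeq has the gene on chromosome 4, so that the probe's target rests on the annotation of the array. The DBA/2 samples gave 0.45 and 0.26 for Isg15 at the start, 2.17 and 2.01 after 2 w, 1.44 and 1.36 after 4 w, 1.98 and 1.96 after 8 w and 1.73 and 1.58 after 9 w. No 2 weeks overlapped, with the highest level at 2 w. The rise over 4 w and 8 w was 1.33 ± 0.08 (2.51-fold, adjusted p = 4.09e-06).

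In B6 mice Isg15 was higher at 4 w and lower at 8 w than at the start. Its level was 3.17 and 3.24 at the start, 3.60 after 2 w, 3.61 and 3.62 after 4 w, 2.13 and 2.18 after 8 w and 2.62 after 9 w. At 4 w it was higher than at 0 w by 0.41 (adjusted p = 0.0169), and at 8 w it was lower, by 2.07-fold (a change of -1.05 ± 0.09, adjusted p = 6.01e-05). Before scaling, the signals were 2461 and 2521 at 0 w and 2454 and 2432 at 8 w, so the fall is one relative to the other probes of each array. It passed under each scaling tried, from -1.43 with pan-leukocyte genes to -0.87 with normexp. The DBA/2 change over 4 w and 8 w exceeded that of B6 by 1.65 ± 0.11 (adjusted p = 3.54e-05).

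Oas1a makes the 2′-5′ oligoadenylates that activate RNase L. Its rise over 4 w and 8 w in DBA/2 mice was the highest of the 10 genes in value with this scaling and background correction, and with normexp it was 1.27 against 2.35 for Oasl2. Its level was -4.59 and -5.09 at the start, the second of these not well above background, then -3.07 and -3.24 after 2 w, -1.95 and -1.98 after 4 w, -1.37 and -1.74 after 8 w and -2.46 after 9 w, where the second sample was left out because its spot was marked as an outlier. The weeks did not overlap. The rise was 3.08 ± 0.15, or 8.47-fold (adjusted p = 3.02e-06). In B6 mice the samples gave -2.54 and -2.58 at the start and -1.37 and -1.53 after 8 w, a rise of 1.11 ± 0.18 (adjusted p = 0.0027), with -1.95 after 2 w, -2.51 and -2.44 after 4 w and -1.55 after 9 w.

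Oasl1 and Oasl2 are OAS-like proteins with ubiquitin-like domains. OASL1 is known to hold back translation of Irf7. In DBA/2 mice Oasl2 went from -2.13 and -2.41 at the start to -0.06 and -0.24 after 2 w, 0.36 and 0.18 after 4 w, 1.30 and 1.04 after 8 w and 0.50 and 0.44 after 9 w. The weeks did not overlap. Its rise at 8 w, 3.45 ± 0.13 or 10.9-fold (adjusted p = 2.11e-07), was the highest of the 10 genes at any week with this scaling. In B6 mice Oasl2 started higher, at 0.31 and 0.27, and reached 1.19 and 1.08 after 8 w (a rise of 0.84, adjusted p = 0.00146), with 0.79 after 2 w, 0.53 and 0.40 after 4 w and 0.90 after 9 w. Oasl1 went from -4.28 and -4.60 in DBA/2 mice at the start to -3.03 and -3.02 after 2 w, -2.28 and -2.26 after 4 w, -2.28 and -2.26 after 8 w and -2.93 and -3.11 after 9 w (4.48-fold over 4 w and 8 w). With normexp the Oasl1 change over 4 w and 8 w was 0.96 and did not pass (adjusted p = 0.221). Its samples at 4 w and 8 w overlapped, as did those at 2 w and 9 w. In B6 mice Oasl1 lay between -3.06 and -2.90 in the 5 samples up to 4 w and gave -2.19 and -2.26 after 8 w and -2.62 after 9 w.

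Mx1 and Mx2 encode dynamin-like GTPases that block viruses, and many inbred laboratory strains carry a defective Mx1. Both were dim. The main Mx1 probe was well above background in 5 of the 18 samples, namely B6 0 w replicate 1, B6 8 w replicate 1, B6 9 w, DBA/2 8 w replicate 1 and DBA/2 9 w replicate 2, and its second probe in none. Its values at 9 w in DBA/2 mice were -5.30 and -3.28, against -5.68 and -6.18 at 0 w, and the other samples of both strains lay between -5.85 and -4.21. At 9 w it was well above background in 1 of the 2 DBA/2 samples, replicate 2, and the change did not pass (adjusted p = 0.0949). Without that sample the difference from 0 w was 0.63, with neither week above background, and without replicate 1 it was 2.65 (adjusted p = 0.0116). With normexp the change passed (1.44, adjusted p = 0.0323). Mx2 was well above background in 14 samples. It gave -4.04 and -4.0 in DBA/2 mice at the start, -3.69 and -3.81 after 2 w, -3.56 and -4.03 after 4 w, -3.89 and -3.05 after 8 w and -3.15 and -3.12 after 9 w, where the rise of 0.88 ± 0.29 passed (adjusted p = 0.0469). This call was lost in 10 of the 16 fits that each left out 1 replicate (adjusted p up to 0.154). In B6 mice Mx2 lay between -4.68 and -3.42 and passed at no week.

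Rsad2 encodes viperin, which makes a chain-terminating nucleotide. It was bright in every sample, with unscaled signals of 17515 to 58412. In DBA/2 mice its level was 6.15 and 6.11 at the start, 7.15 and 7.07 after 2 w, 6.29 and 6.27 after 4 w, 6.78 and 6.73 after 8 w and 7.26 and 6.96 after 9 w. It rose by 0.98 to 2 w (adjusted p = 0.000286), fell by 0.83 to 4 w (adjusted p = 0.000803) and was higher at 8 w than at 0 w by 0.63 (adjusted p = 0.00133). In B6 mice it was 6.09 and 6.04 at the start, 6.74 after 2 w, 6.85 and 6.79 after 4 w, 5.51 and 5.48 after 8 w and 6.48 after 9 w. Against 0 w it fell by 0.57 at 8 w (adjusted p = 0.00266), though its signals before scaling were higher at 8 w (25459 and 23960) than at 0 w (18641 and 17515). The fall did not pass with quantile normalization (-0.12, adjusted p = 0.73), with normexp (0.197) or with slide as a fixed block (0.0599).

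**Figure D2:**
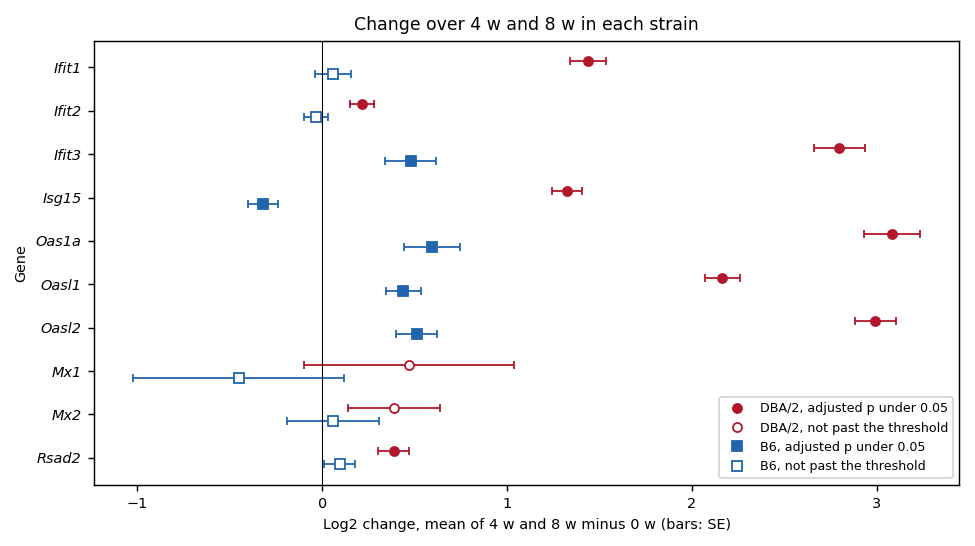
Log2 change of each gene between 0 w and the mean of weeks 4 and 8 (horizontal axis) in DBA/2 mice (circles) and B6 mice (squares), with bars of 1 SE and filled symbols for an adjusted p under 0.05. The DBA/2 changes of Ifit1, Ifit3, Isg15, Oas1a, Oasl1 and Oasl2 run from 1.33 to 3.08 and the B6 changes of the same genes from -0.32 to 0.59.

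In B6 mice the 10 genes did not all move in 1 direction. Their group means spanned more over the weeks than those of DBA/2 mice for Ifit2 (1.04 against 0.46, log2), Rsad2 (1.33 against 0.98) and Mx2 (0.96 against 0.88), and less for the other 7. Over 4 w and 8 w, Ifit3, Oas1a, Oasl1 and Oasl2 rose and Isg15 fell, where 15% of all probes passed, and the largest of these changes was 0.59. With either B6 0 w sample left out, none of these 5 genes passed. At 8 w 4 genes rose and 3 fell, against 21.2% of all probes. At 2 w 2 rose and 1 fell (13% of all probes), at 4 w 2 rose (6.02% of all probes rose), and at 9 w 2 rose and 1 fell (9.34%), 1 of them, Oasl2, with a call lost in 12 of 16 fits without 1 replicate. Each of the B6 values at 2 w and 9 w comes from 1 sample, assumed to vary like the others.

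The DBA/2 change over 4 w and 8 w exceeded the B6 change for 6 genes and was below it for none, where 6.48% of all probes passed in that direction. These were Oas1a (2.49 ± 0.22), Oasl2 (2.48 ± 0.16), Ifit3, Oasl1 (1.73 ± 0.13), Isg15 and Ifit1 (1.38 ± 0.14). At an unadjusted p under 0.05 there were 8 above and 0 below, and the share of all probes at that level is not given here. Each of the 2 scan days held a single sample per group, so the values within a day only describe the data. All 10 differences, those of the dim Mx1 and Mx2 included, were above 0 within each day. They ran from 0.25 to 2.42 on the first and from 0.26 to 2.65 on the second. With the slide as a fixed block the same number, 6, passed. With normexp 3 passed, while Ifit1 (adjusted p = 0.246), Oas1a (0.0699) and Oasl1 (0.968) did not. Of the 6 genes, Ifit1, Ifit3, Isg15 and Oas1a are among those printed above with the response element in their promoter, as is Rsad2, whose difference between the strains was 0.29 ± 0.12 (adjusted p = 0.15).

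The strain difference in change went with a difference at the start. Right after the injections DBA/2 mice had lower levels than B6 mice of Isg15 (7.19-fold), Oasl2 (5.9-fold), Oas1a (4.86-fold), Ifit1 (2.66-fold) and Oasl1 (2.66-fold), and higher levels of none by limma or at an unadjusted p under 0.05, where 15.4% of all probes were lower. One of the 2 Oas1a values in DBA/2 mice was not well above background. Ifit2, Ifit3, Mx1, Mx2 and Rsad2 did not pass. By 8 w the values of Isg15, Oas1a, Oasl1 and Oasl2 differed between the strains (DBA/2 minus B6) by -0.19 ± 0.09, -0.10 ± 0.18, -0.04 ± 0.11 and 0.04 ± 0.13, and none of these passed. In all, 4 genes were higher in DBA/2 mice at that week, namely Ifit3 (2.13), Rsad2 (1.26), Ifit1 (0.57) and Ifit2 (0.30), against 10.4% of all probes. These comparisons share the 0 w samples with the changes above, so the lower DBA/2 start and the larger DBA/2 rise are not separate pieces of evidence. From 0 w to 8 w Isg15 changed by -1.05 in B6 mice, while Oas1a, Oasl1 and Oasl2 rose there. Up to 8 w the DBA/2 and B6 arrays lay on different slides, so that slide and strain cannot be told apart in the levels at 0 w to 8 w. Hepatocyte markers were also high in the B6 samples at 0 w and 8 w. Their summed scaled signal was 15678 to 15986 and 14349 to 14528, against 1582 to 1670 and 6711 to 6797 in DBA/2 mice. The part of this RNA in the strain differences was not tested.

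**Figure D3:**
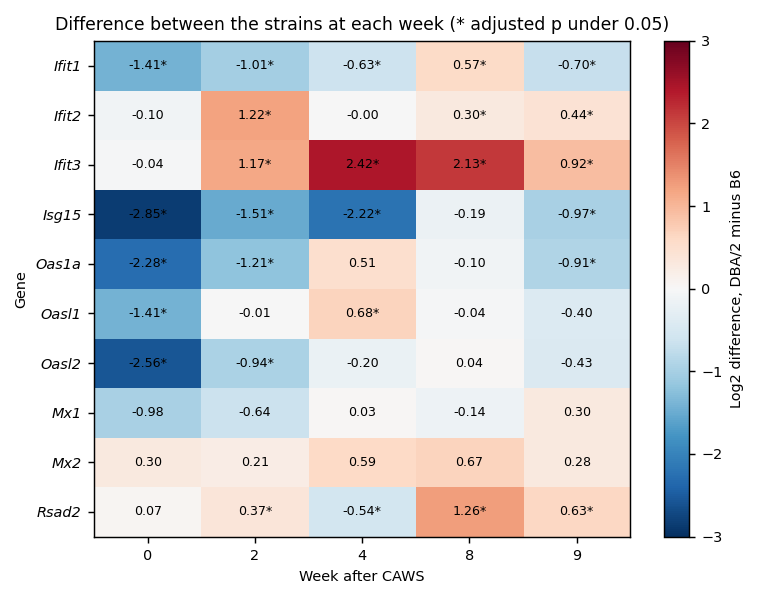
Log2 difference between the strains (DBA/2 minus B6, colour scale and printed values) for each gene at each week, with asterisks for an adjusted p under 0.05. Isg15, Oas1a, Oasl1, Oasl2 and Ifit1 run from -2.85 to -1.41 at 0 w and from -0.19 to 0.57 at 8 w, while Ifit3 is above 0 from 2 w on.

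The levels of Ifit3 at 0 w overlapped between the strains (a difference of -0.04 ± 0.16, adjusted p = 0.872), and it was higher in DBA/2 mice by 1.17 after 2 w, 2.42 after 4 w, 2.13 after 8 w and 0.92 after 9 w, all past the threshold (the largest adjusted p was 0.013), though not with normexp at 2 w (adjusted p = 0.406) and 9 w (0.189). At 2 w 3 genes were higher and 4 lower in DBA/2 mice (23.9% of all probes passed), at 4 w 2 higher and 3 lower (32.1%), and at 9 w 3 higher and 3 lower (13.3%). The Rsad2 call at 2 w was lost in 14 of 16 fits that left out 1 replicate and with pan-leukocyte scaling (adjusted p = 0.789). The Oas1a call at 9 w sets 1 DBA/2 sample against 1 B6 sample, was lost in 11 of 15 such fits and turned to 0.51 with normexp. Isg15 was lower in DBA/2 mice by 2.85-fold after 2 w, 4.65-fold after 4 w and 1.96-fold after 9 w.

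From week to week in DBA/2 mice, Ifit1, Ifit3, Oas1a and Oasl2 had their highest mean level at 8 w. Oasl1 had the same mean, -2.27, at 4 w and 8 w. All of these genes were lower at 9 w, where Oas1a rests on a single sample. From 2 w to 4 w Ifit3, Oas1a and Oasl1 rose and Isg15 and Rsad2 fell (9.32% of all probes passed), from 4 w to 8 w Ifit1, Isg15, Oasl2 and Rsad2 rose (3.54% rose), and from 8 w to 9 w Ifit1, Ifit3, Isg15, Oas1a, Oasl1 and Oasl2 fell and Ifit2 and Rsad2 rose (17.4%). The Isg15 fall (-0.32, adjusted p = 0.0457) was lost in 13 of 16 fits that left out 1 replicate and with pan-leukocyte scaling (adjusted p = 0.398). The rises of Ifit2 and Rsad2 passed under none of the 5 other scalings or background corrections (75th percentile over all probes, array median, quantile, pan-leukocyte genes and normexp). With normexp the changes of Oas1a and Oasl1 from 8 w to 9 w turned to 0.56 and 0.25, and with quantile normalization that of Rsad2 turned to -0.33. In B6 mice Ifit3, Oas1a, Oasl1 and Oasl2 rose and Ifit1, Ifit2, Isg15 and Rsad2 fell from 4 w to 8 w (29.2% of all probes passed). From 2 w to 4 w in B6 mice Ifit2 rose by 1.04 (6.62% of all probes rose), and from 8 w to 9 w Rsad2 rose by 0.98 (2.67%).

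Pearson's r of a gene with the mean of the other 9 over the 10 DBA/2 samples was 0.99 for Oasl2, 0.95 for Ifit1, 0.95 for Oas1a (9 samples), 0.91 for Oasl1, 0.85 for Isg15 and 0.82 for Ifit3, and between 0.35 and 0.54 for Ifit2, Mx1, Mx2 and Rsad2. Over the 8 B6 samples it ran from -0.57 for Ifit2 to 0.69 for Mx2. These are descriptions, since the samples share groups and scaling. Among the other named genes, the 7 closest to the mean course of the 10 over the 18 samples were Usp18 (r = 0.92), Ifih1 (0.91), Cebpb (0.88), Oas1f (0.88), Slc25a20 (0.86), Picalm (0.86) and Mrgpra2b (0.85).

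Among the genes that transmit the interferon signal, Irf7 rose in DBA/2 mice and was lower in B6 mice at 8 w. In DBA/2 mice Irf7 gave -3.19 and -3.36 at the start, -2.08 and -2.09 after 2 w, -1.83 and -1.81 after 4 w, -1.20 and -1.19 after 8 w and -1.81 and -2.05 after 9 w. In B6 mice it was 0.98 and 0.90 at the start, 0.87 after 2 w, 0.92 and 0.93 after 4 w, -0.27 and -0.31 after 8 w and 0.17 after 9 w. The strains did not overlap in any sample, and whether the probe matches both equally well was not analysed. The difference at 0 w, DBA/2 minus B6, was -4.22 ± 0.09 (adjusted p = 1.36e-08). Over 4 w and 8 w Irf7 rose in DBA/2 mice by 1.77 ± 0.08 (adjusted p = 7e-07), and in B6 mice it fell by 0.63 ± 0.08 (adjusted p = 0.000837). The B6 levels at 4 w lay within those at 0 w, and before scaling the B6 signals were 541 and 501 at 0 w and 465 and 432 at 8 w.

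**Figure D4:**
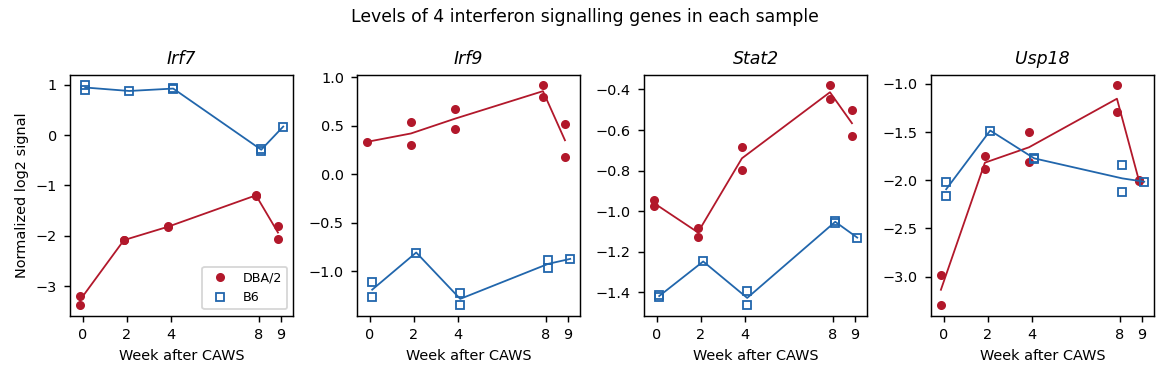
Normalized log2 signal (vertical axis, a scale of its own in each panel) of Irf7, Irf9, Stat2 and Usp18 in each sample against the week after CAWS administration, with DBA/2 samples as filled circles, B6 samples as open squares and lines through the group means. Every DBA/2 value of Irf7 lies below every B6 value, and every DBA/2 value of Irf9 lies above every B6 value.

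Of 8 genes of the receptor and its signalling, 2 rose and 2 fell in DBA/2 mice over 4 w and 8 w (9.8% of all probes rose), with a median of 0.17 where that of all probes was -0.14. Besides Irf7, Stat2 rose by 0.38 ± 0.07, while the kinase gene Jak1 fell by 0.25 and Irf3, which starts interferon production, fell by 0.32. Irf9 did not pass (0.38 ± 0.16, adjusted p = 0.131, with 1 DBA/2 0 w spot left out as an outlier), and it was higher in DBA/2 mice at 0 w by 1.52. Of the 5 genes that attach ISG15 or remove it, 4 rose, among them the protease gene Usp18 (1.73 ± 0.14), Herc6 (0.86) and Ube2l6 (0.69), the ligase and conjugating enzyme, and Uba7 (0.44), the activating enzyme. Usp18 gave -2.98 and -3.29 in DBA/2 mice at the start and -1.02 and -1.29 after 8 w. In B6 mice the values were -2.02 and -2.17 at the start and -1.84 and -2.12 after 8 w.

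Of 33 other interferon-stimulated genes tested, 21 rose and 2 fell in DBA/2 mice over 4 w and 8 w (9.8% of all probes rose), with a median of 0.61, and 8 rose and 3 fell in B6 mice (15% of all probes passed), with a median of 0.04. Of the 21, Oas1d and Eif2ak2 had no DBA/2 sample above background at 0 w, and with such genes at their bound the median was 0.47. The largest were Oas2 (2.43 ± 0.44), Rtp4 (2.36 ± 0.07), Oas1f (2.32 ± 0.08), Oas3 (2.28 ± 0.51), Ifitm1 (2.08 ± 0.06) and Ifitm2 (1.90 ± 0.11). Ifitm1 and Ifitm2, which hinder virus entry, rose in B6 mice as well, by 2.33 and 1.30. Of 12 sensors and adaptors of viral nucleic acid tested, 5 rose and none fell in DBA/2 mice, beside the same 9.8% of all probes, namely the RNA sensor genes Ifih1 (1.73), Dhx58 (1.31) and Tlr7 (0.91), the adaptor gene Myd88 (1.49) and Zbp1 (1.08). No such change was detected for the interferon genes themselves, but not all could be tested, so its absence is not shown. Of the 12 with a probe, 6 could be tested and 0 passed in limma in either strain over 4 w and 8 w, nor at an unadjusted p under 0.05, and Ifnb1 was well above background in no sample.

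**Figure D5:**
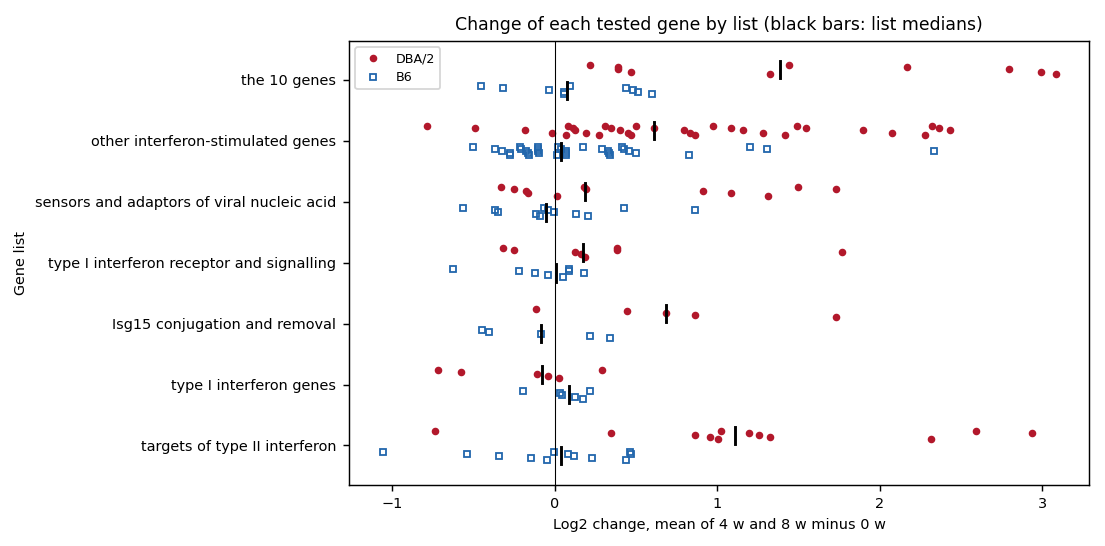
Log2 change between 0 w and the mean of weeks 4 and 8 (horizontal axis) of each tested gene by list, in DBA/2 mice (filled circles) and B6 mice (open squares), with black bars at the list medians, dim genes being drawn at their fitted values. The medians in DBA/2 mice run from -0.08 for the type I interferon genes to 1.11 for the targets of type II interferon and 1.38 for the 10 antiviral genes.

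Genes known to answer chiefly to type II interferon moved in DBA/2 mice too. Of 12 tested, 11 rose over 4 w and 8 w and 1, Ciita, fell by 0.74, with a median of 1.11, and in B6 mice 2 rose and 2 fell, where 9.8% of all probes rose in DBA/2 mice and 15% passed in B6 mice. Gbp2, a guanylate-binding protein gene, rose by 2.94 ± 0.10 and Iigp1, an immunity-related GTPase gene, by 1.26 ± 0.12. The chemokine genes Cxcl9 and Cxcl10 are counted among the 11, but they were well above background in only 3 and 5 samples, all of DBA/2 mice and none at 0 w. They entered the test through the samples in which they were high, and the rise has only a bound, of at least 1.14-fold and 1.65-fold. With both at their bound the median of the list was 0.98.

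The makeup of the blood changed over the same weeks, and in bulk RNA fewer cells of a type and less RNA per cell cannot be told apart. For all the markers below, 9.8% of all probes rose in DBA/2 mice over 4 w and 8 w. In B6 mice 15% passed in either direction, and the strain difference passed upward for 6.48%. The share that fell in DBA/2 mice is not given here. Neutrophil markers rose in both strains, with 11 of 11 tested higher over 4 w and 8 w in each. Their summed scaled signal in DBA/2 mice was 40061 to 40471 at 0 w and 264542 to 294556 at 8 w, and in B6 mice 21509 to 21593 and 161584 to 162450. In B6 mice at 0 w 3 of them, Ngp, Camp and Lcn2, were not above background. From 4 w to 8 w 9 of 11 neutrophil markers rose in DBA/2 mice and none fell (3.54% of all probes rose). From 8 w to 9 w 10 of 11 fell and none rose (17.4% of all probes passed). Their sum was 125957 to 135699 at 4 w and 99627 to 121754 at 9 w. In B6 mice 11 of 11 rose from 4 w to 8 w (29.2% of all probes passed), and the sum at 9 w was 84299. Over 4 w and 8 w monocyte markers rose in 8 of 9 in DBA/2 mice (4426 to 4695 at 0 w and 11005 to 11788 at 8 w) and in 5 of 9 in B6 mice (4276 to 4424 and 10123 to 10322). Of 8 markers of plasmacytoid dendritic cells, among them Bst2, which interferon also induces, 2 rose and 3 fell in DBA/2 mice (664 to 738 at 0 w and 524 to 594 at 8 w), and 1 fell in B6 mice (782 to 793 and 697 to 742). Their defining marker Siglech was not above background in 9 of the 10 groups, the exception being DBA/2 mice at 4 w.

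NK cell markers differed between the strains in their change for 6 of 8, with 5 higher over 4 w and 8 w in DBA/2 mice (1952 to 2010 at 0 w and 2809 to 2811 at 8 w) and 6 lower in B6 mice (3212 to 3225 and 2295 to 2349). At 0 w 15.4% of all probes were lower in DBA/2 than in B6 mice, and hepatocyte markers were lower for 10 of 11. Their summed signal was 15678 to 15986 in B6 mice right after the injections and 14349 to 14528 after 8 w, with all 11 above background, against 1582 to 1670 in DBA/2 mice at 0 w, with Apoa1, Apoa2, Apob, Ttr, Fabp1, Cyp2e1 and Fga not above background, and 6711 to 6797 at 8 w, with these and Alb not above background. The other 3 B6 groups lay between 1817 and 2703. The DBA/2 sum at 8 w thus came mainly from the markers of the list that were above background, and which cells gave it was not tested. Erythroid markers were lower in DBA/2 mice at 0 w as well, for 6 of 6 (1288731 to 1356690 against 2404276 to 2464092), beside the same 15.4%. In B6 mice 6 of 6 were also lower at 8 w than at 0 w (1114723 to 1150739 at 8 w), where 21.2% of all probes passed. The erythroid sum in DBA/2 mice was 1594498 to 1643472 at 2 w and 1310659 to 1343916 at 4 w. It was 1479965 to 1486300 at 8 w and 1733213 to 1975407 at 9 w. T cell markers were lower over 4 w and 8 w for 7 of 10 in DBA/2 mice (4446 to 4452 at 0 w and 2757 to 2821 at 8 w) and 5 of 10 in B6 mice (6660 to 6735 and 5585 to 5624). B cell markers were lower for 5 of 8 in DBA/2 mice (10197 to 10900 and 6774 to 7186), while 0 passed in limma in B6 mice, with 4 lower at an unadjusted p under 0.05 (7800 to 7812 and 7730 to 8048). Platelet markers were higher for 5 of 7 in each strain. The part that neutrophils, monocytes, lymphocytes, NK cells, platelets, red cell precursors and hepatocyte RNA had in the levels of the antiviral genes was not tested. With the arrays scaled by pan-leukocyte genes, 6 of the 10 genes rose in DBA/2 mice over 4 w and 8 w, where 4.51% of all probes rose. In B6 mice none of the 10 rose and Isg15 fell, where 19.3% of all probes fell. The median over all probes was -0.35 in DBA/2 and -0.36 in B6 mice under that scaling.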

How the data were processed

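The authors labelled leukocyte RNA with Cy3, hybridized it to single-color Agilent whole mouse genome arrays and extracted the images with Feature Extraction (9.5.3.1 per the file headers). The deposited files give each spot's processed signal, an intensity on the linear scale after background subtraction and detrending, not normalized between arrays. The deposited value table holds the same intensity averaged per probe. The 19 arrays hold 18 samples in 10 groups, since B6 0 w replicate 2 is on 2 arrays, which were averaged.

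Controls and outlier-marked spots were dropped, repeat spots of a probe were averaged as log2, and from each array its 75th percentile was subtracted, taken over 11536 probes that passed the scanner's background test on all arrays. The 22939 of 41174 probes well above background in at least 2 samples entered a linear model in limma 3.58.1, run under R 4.3.3 (lmFit and eBayes, 1 mean per group, 8 residual degrees of freedom) with Benjamini-Hochberg adjustment and a threshold of 0.05. Probes were named by accession (24375), gene name (6301) or synonym (2426) through RefSeq, and 8072 kept the name in the files. A group not well above background on any array has only a bound, set by the lowest signal well above background on its arrays. Marker lists are given as sums of scaled signals brought back to the linear scale by adding the mean 75th percentile.

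The members and lists were chosen with earlier results of these data known. All 10 members are named, with up to 6 genes per pathway list of the largest changes past the threshold, and always Irf7, Irf9, Stat2 and Usp18. A gene of the signalling list and one of the monocyte list are not reported here. Of the 8 closest genes by Pearson's r over the 18 samples, 7 are named. Alternatives covered background correction, scaling, filters, blocks, array weights and single arrays or replicates left out. The procedure was tested on simulated data. Tables came from pandas 2.3.3 and numpy 2.4.6 under Python 3.11.15 and figures from matplotlib 3.10.9.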

Additional observations from a re-analysis of the deposited data

Results flagged for a closer look

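For 6 of the 10 genes the change over 4 w and 8 w differed between the strains by the test of the difference itself, always with the larger rise in DBA/2 mice. The difference (DBA/2 minus B6, log2) was 2.49 for Oas1a, 2.48 for Oasl2, 2.32 for Ifit3, 1.73 for Oasl1, 1.65 for Isg15 and 1.38 for Ifit1. All groups hold fewer than 3 samples, so no single sample could be tested as standing apart.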

How the results depend on the processing

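Of 7335 values of single genes under an alternative, 6864 kept their side of the threshold, 401 lost it, 63 gained it and 7 turned their sign where either value passed. A change of sign between values that both missed the threshold is not counted as a reversal. The 7 were, with normexp, Oas1a and Oasl1 in DBA/2 mice from 8 w to 9 w (0.56 and 0.25), Oasl1 in B6 mice from 4 w to 8 w (-0.063), and between the strains Oasl1 at 4 w (-0.022) and Oas1a at 9 w (0.51), and with quantile normalization Rsad2 in DBA/2 mice from 8 w to 9 w (-0.33) and between the strains at 4 w (0.19). The causes were not tested. Normexp moved the median of all probes by -0.70 to 0.81 and scaling by pan-leukocyte genes by -0.39 to 0.23, and quantile normalization and the 75th percentile over all probes moved it by at most 0.16 in size. Dim genes such as Mx1 limit what can be seen, and the filter, not the values, sets how many probes share the adjustment.

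The number of genes past the threshold changed by over 1.5 times as follows. In DBA/2 mice against 0 w it was, with normexp, 3 at 2 w, 4 at 4 w and 5 over 4 w and 8 w, and for the strain difference 3. In B6 mice over 4 w and 8 w it was 0 with normexp, 0 with no filter, 3 with the strain alone, 1 with pan-leukocyte scaling, 1 with slide as a fixed block and 0 at 2-fold without a test. At 2 w in B6 mice it was 5 with the filter at 9 samples, 0 with normexp, 6 with slide as a random block and 0 at 2-fold. At 4 w it was 1 with no filter, 0 with normexp, 1 with the strain alone, 1 with pan-leukocyte scaling, 1 with the fixed slide block and 0 at 2-fold. At 8 w it was 2 with normexp, 3 with the fixed slide block and 2 at 2-fold. At 9 w it was 0 with no filter, 0 with normexp, 1 with quantile normalization, 1 with the strain alone, 0 with pan-leukocyte scaling, 0 with the fixed slide block and 1 at 2-fold. Between weeks in DBA/2 mice it was, from 2 w to 4 w, 1 with normexp and 1 at 2-fold, from 4 w to 8 w, 1 with no filter, 0 with normexp, 1 with the strain alone, 1 with pan-leukocyte scaling and 0 at 2-fold, and from 8 w to 9 w, 4 with array weights, 4 with no filter, 3 with normexp, 4 with the strain alone, 3 with pan-leukocyte scaling and 1 at 2-fold. In B6 mice it was, from 2 w to 4 w, 0 with normexp, from 4 w to 8 w, 3 with normexp and 3 at 2-fold, and from 8 w to 9 w, 2 with array weights, 2 with the filter at 9 samples, 2 with the floor of 10, 0 with normexp, 0 with quantile normalization, 4 with slide as a random block and 0 at 2-fold. Between the strains it was 2 with normexp at 2 w, 2 with normexp and 2 at 2-fold at 4 w, 2 with normexp and 2 at 2-fold at 8 w, and at 9 w 1 with no filter, 1 with normexp, 1 with pan-leukocyte scaling, 2 with the fixed slide block and 0 at 2-fold.

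With a replicate left out, the counts ran from 6 to 8 in DBA/2 mice over 4 w and 8 w, from 0 to 5 in B6 mice and from 6 to 6 for the strain difference. Against 0 w they ran from 8 to 8 at 2 w, 6 to 7 at 4 w, 7 to 8 at 8 w and 8 to 9 at 9 w in DBA/2 mice, and from 2 to 4, 1 to 2, 6 to 7 and 0 to 3 in B6 mice. They ran from 4 to 7 from 8 w to 9 w and from 1 to 4 from 4 w to 8 w in DBA/2 mice, from 1 to 2 from 8 w to 9 w in B6 mice, and from 5 to 7 between the strains at 9 w. A lone sample left in a group is assumed to vary like the others. The fixed slide block could not be fitted for DBA/2 mice at 9 w against 0 w or 8 w, or between the strains from 0 w to 8 w.

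The replicate number was also the scan day in the file headers. Deviations of samples with the same number correlated between -0.03 and 0.83 over 28 pairs of groups (median 0.18), 23 of them over 0.1. Samples of the same number thus deviated together to some degree in most pairs of groups, though not in all, and the main fit holds no block for it. With the replicate block the counts were 8 over 4 w and 8 w in DBA/2 mice, 5 in B6 mice and 6 for the strain difference, while in B6 mice they were 5 at 2 w, 5 at 9 w and 4 from 8 w to 9 w.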
